A study of Mus musculus with 20 samples.

Results

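The mitochondrial genome of the mouse holds 37 annotated genes, and all 37 had a line in the count tables of a hippocampus RNA-seq series, out of 49671 genes in all. They were chosen by chromosome alone: every line whose chromosome is given as MT. They comprise 13 protein-coding genes, 2 ribosomal RNA (rRNA) genes and 22 transfer RNA (tRNA) genes. The data bear out the label, since all 37 have the coordinates and strand of GENCODE M21, which annotates the mouse build GRCm38. Of the 37, 32 had enough counts to be tested, and the other 5 are all tRNA genes.

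Bulk RNA was sequenced from 1 fresh-frozen hippocampus of each of 20 adult male wild-type mice aged 10 to 12 weeks, 5 per group. Control mice had no tumour and received isotype antibody. ICI mice had no tumour and received immune checkpoint inhibitors, antibodies against CTLA-4 (1 mg per dose, 3 doses per week) and against PD-1 (200 µg per dose, 2 doses per week). Melanoma mice carried intradermal D4M-3A.UV2 tumours, grown on both sides from 500000 cells of this single syngeneic line per injection with 1 week to engraft, and received isotype antibody. Melanoma plus ICI mice carried the same tumours and received both inhibitors, for 3 weeks per the labels. Tissue was collected 72 hours after the final injection. The labels name no batch, so a batch that followed the groups cannot be told apart from them.

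As background, each mitochondrion carries copies of a small circular genome whose strands are named heavy and light for their density. The polymerase Polrmt copies each strand into long transcripts that hold many genes, and the tRNAs that lie between the other genes are cut out of them, which frees the rRNAs and messenger RNAs. The 13 proteins are all subunits of the respiratory chain and ATP synthase: complex I (Nd genes), complex III (mt-Cytb), complex IV (Co genes) and complex V (Atp genes). All other subunits, and all proteins that copy, cut, modify and translate these RNAs, come from nuclear genes. Neurons depend heavily on this chain for ATP. In the annotation, 28 of the 37 genes lie on the strand marked plus, which holds the sequence of the RNAs made from most of the genome, and 9 lie on the minus strand: 8 tRNA genes and mt-Nd6. By the usual convention the 28 are called heavy-strand genes and the 9 light-strand genes.

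A stretch of the mitochondrial genome also lies in the nuclear genome, and nearly identical sequence bears on how reads are assigned to genes. On chromosome 1 of GRCm38, from 24611535 to 24616197 on the minus strand, 7 annotated pseudogenes follow each other in the order of mitochondrial genes. They match the mitochondrial genome from 6390 to 11042, a span of 4653 bases, and their 4140 aligned bases hold 2 mismatches (blastn against GENCODE M21 transcripts). On the mitochondrial genome, the stretch contains 11 of the 37 genes whole (mt-Ts1, mt-Td, mt-Co2, mt-Tk, mt-Atp8, mt-Atp6, mt-Co3, mt-Tg, mt-Nd3, mt-Tr and mt-Nd4l) and parts of mt-Co1 and mt-Nd4, and the other 24 lie outside it. Of the 11, mt-Ts1, mt-Td, mt-Tk, mt-Atp8, mt-Tg and mt-Tr have no annotated copy. Their place in the nuclear stretch is inferred from the pseudogenes on either side, as no genome sequence was compared. The first 60 bases of mt-Co2, which encodes the complex IV subunit that takes electrons from cytochrome c, and of its copy Gm28661 (24614885 to 24615565) are shown in lower case because they are identical letter for letter, as are all 681 aligned bases of the pair:
mt-Co2: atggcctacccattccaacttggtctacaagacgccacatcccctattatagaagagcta
Gm28661: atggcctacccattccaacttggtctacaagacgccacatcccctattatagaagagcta
Of the 2 mismatches, the first lies in mt-Nd3, a complex I subunit gene, against Gm28438 (24612775 to 24613119). It is T3C, with positions counted from 1 at the 5′ end of mt-Nd3, and the differing base is in capitals:
mt-Nd3: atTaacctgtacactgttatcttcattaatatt
Gm28438: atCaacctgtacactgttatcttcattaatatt
The other is A1066T in mt-Co1 against Gm29216, close to position 1063 of mt-Co1, where that alignment starts. Further copies with 90% identity or more over at least 50% of the pseudogene lie on chromosomes 2, 4, 11 and 13, with identities from 90.7% to 97.6%. The closest of them is Gm13340, on chromosome 2, which aligns with the whole of mt-Co1 at 97.6%.

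Neighbouring genes also share bases, which matters where reads are assigned to genes. The largest overlap joins mt-Atp8 and mt-Atp6, both subunits of ATP synthase, over 43 bases of the same strand from position 7927 to 7969. It is in capitals here, with 20 bases on either side:
mt-Atp8 to mt-Atp6: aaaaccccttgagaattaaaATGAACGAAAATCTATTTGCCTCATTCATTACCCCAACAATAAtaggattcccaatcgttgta
The complex I genes mt-Nd4l and mt-Nd4 share 7 bases, again in capitals:
mt-Nd4l to mt-Nd4: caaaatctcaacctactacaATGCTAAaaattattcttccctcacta
On opposite strands, mt-Nd5 and mt-Nd6 share 14 bases, and the other 6 overlaps are of 1 to 3 bases. The tRNA genes range from 59 to 75 bases in length. The RNA sequence of mt-Tp, the most abundant tRNA gene in these libraries, is shown with those of mt-Te and mt-Tn, the next in level, and with mt-Td and mt-Tk, which had no count in any library:
mt-Tp: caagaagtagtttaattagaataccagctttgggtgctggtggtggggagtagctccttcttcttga
mt-Te: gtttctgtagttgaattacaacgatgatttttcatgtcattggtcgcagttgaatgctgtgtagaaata
mt-Tn: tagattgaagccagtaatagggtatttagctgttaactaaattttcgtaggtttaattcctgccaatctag
mt-Td: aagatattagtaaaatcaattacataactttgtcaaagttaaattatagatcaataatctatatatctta
mt-Tk: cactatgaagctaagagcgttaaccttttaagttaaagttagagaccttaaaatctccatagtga
The first 3 are written as DNA letters of the light-strand gene and lie outside the copied stretch, and the last 2 are heavy-strand genes within it. All sequences are those of GENCODE M21 transcripts.

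Libraries held 21990624 to 25735149 counts. All 14 hippocampus markers were detected and tested, with a score (mean log2 CPM) of 4.68 to 7.44. It was low in melanoma plus ICI, where all 5 libraries lay between 4.68 and 6.19, while 4 of 5 in each other group lay above 6.19. Markers of neighbouring tissue varied between libraries of every group, most of all those of the choroid plexus, whose score ran from 0.16 to 6.67. The striatum score differed between groups: it ran from 3.57 to 4.03 in control and from 3.69 to 4.16 with ICI, while 3 melanoma libraries (replicates 1, 3 and 5 at 5.91, 7.21 and 6.40) and melanoma plus ICI replicates 3 (6.19) and 4 (4.198) stood above all tumour-free ones. The meninges score ran from 3.44 to 4.74 in melanoma plus ICI, from 2.09 to 3.82 with ICI, from 2.50 to 4.199 with melanoma and from 3.02 to 4.41 in control. Scores ran from 5.02 to 6.57 for neocortex, from 7.96 to 9.52 for myelin and from -1.61 to 2.73 for red blood cells, and no marker was at 0 in all libraries. Of all these scores, only that of the choroid plexus was added to the comparisons below, as a covariate. The part of the others was not tested.

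Control replicate 4 and melanoma plus ICI replicate 1 stood apart in the mitochondrial genes, and the direction counts and medians of each comparison between groups are given with and without them. In control replicate 4, 29 of the 32 tested genes were above all 4 other control libraries and 3 were below them. In melanoma plus ICI replicate 1, 25 were above the other 4 of its group, 3 below and 4 among them. In each of the other 18 libraries, at most 15 of the 32 lay above the other 4 of the group and at most 17 below them. The steepest of these differences was in mt-Tl2, the tRNA gene for leucine with CUN codons, at 4.14 times the mean of the other 4 controls in control replicate 4 and 2.36 times that of its group in melanoma plus ICI replicate 1. The rRNA gene mt-Rnr1 was at 2.23 and 1.80 times, mt-Rnr2 at 2.17 and 1.64 times, and mt-Nd3 at 2.69 and 2.17 times in the same order. The most abundant gene, mt-Co1, differed less, at 1.22 and 1.11 times. Against this, mt-Nd5, the largest mitochondrial protein gene, was at 0.868 and 0.682 times, and mt-Tm, the methionine tRNA gene, at 0.493 and 0.593 times. So the genes did not move by 1 common factor. The order of the group means turned on these libraries: with all 20, control had the highest mean of the 4 groups for 25 of the 32 genes and the lowest for 0, and without them it was highest for 7 and lowest for 6, while melanoma plus ICI was highest for 6 with all 20 and for 15 without them. The same 2 libraries also differed in the nuclear transcriptome: the mean log2 CPM of the shortest 25% of nuclear genes (up to 2135 bases) minus that of the longest 25% (5832 bases or more) was -2.96 and -3.13 in them and -3.55 to -3.35 in the other 18. Their red blood cell scores were the highest of their groups, at 2.73 beside 0.72 to 1.67 in the other controls and at 2.55 beside 0.54 to 1.56 in the other melanoma plus ICI libraries, and melanoma replicate 5 reached 2.58. Their choroid plexus scores were low, at 1.30 and 1.28, the second below the other 4 of its group (4.65 to 6.67) and the first below all other controls but replicate 1 (0.98). The part of these differences in the mitochondrial values of the 2 libraries was not tested. The choroid plexus score entered only as a covariate in the comparisons between groups.

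**Figure D1:**
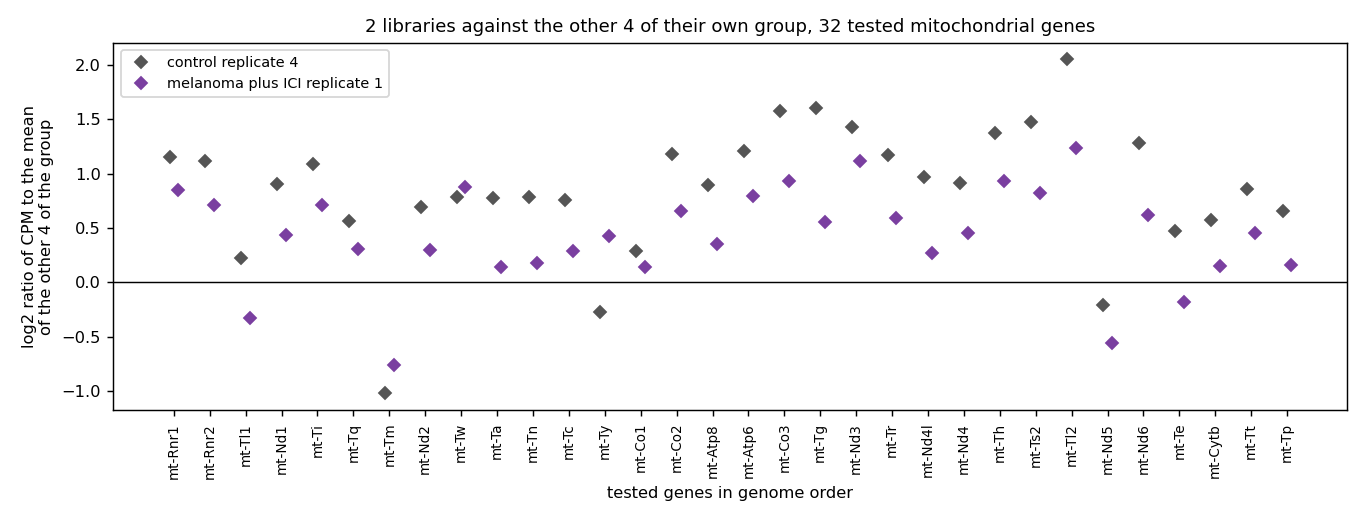
The log2 ratio of CPM in control replicate 4 and in melanoma plus ICI replicate 1 to the mean of the other 4 libraries of the same group (vertical axis) for the 32 tested mitochondrial genes in genome order (horizontal axis), 1 diamond per gene and library. Most diamonds lie above 0, mt-Tl2 highest in both, while mt-Tm and mt-Nd5 lie below 0 in both.

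Mitochondrial genes took 3.08% to 5.10% of all counts in the 20 libraries. The share was 3.80% ± 0.739 (SD, n = 5) in control mice, 3.21% ± 0.168 with ICI, 3.41% ± 0.239 with melanoma and 3.71% ± 0.379 with both. In control the 5 libraries held 3.62%, 3.27%, 3.45%, 5.10% and 3.54%, in order of replicate number. In ICI they held 3.16%, 3.18%, 3.12%, 3.08% and 3.50%, in melanoma 3.29%, 3.44%, 3.79%, 3.38% and 3.15%, and in melanoma plus ICI 4.28%, 3.63%, 3.78%, 3.22% and 3.65%. Every pair of groups overlapped. Without the 2 libraries that stood apart, the control share was 3.47% ± 0.149 (n = 4) and that of melanoma plus ICI 3.57% ± 0.240 (n = 4). In bulk tissue, fewer cells rich in mitochondria and less mitochondrial RNA per cell cannot be told apart.

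Most of this share came from messenger RNAs. Over all libraries, the 13 protein-coding genes held 83.0% of the mitochondrial counts, the 2 rRNA genes 16.5% and the 22 tRNA genes 0.527%. The protein-coding genes made up 3.12% ± 0.462 (SD, n = 5) of all counts in control mice, 2.70% ± 0.122 with ICI, 2.81% ± 0.183 with melanoma and 3.06% ± 0.232 with both. The rRNA genes made up 0.655% ± 0.274, 0.496% ± 0.0501, 0.575% ± 0.0595 and 0.634% ± 0.178 in the same order. The tRNA genes made up 0.0206%, 0.0178%, 0.0164% and 0.0195%. Without the libraries that stood apart (n = 4 each), control and melanoma plus ICI were at 2.92% and 2.99% for protein-coding genes, 0.534% and 0.557% for rRNA and 0.0185% and 0.0192% for tRNA, so control was no longer the highest in any of them and lay below melanoma in rRNA. The 9 light-strand genes held 2.08% of the mitochondrial counts. As the strand setting of the counts is not given, this share may include reads of transcripts from the opposite strand. The method of enrichment for messenger RNA or against rRNA is not given in the sources used here, so the proportion of rRNA to messenger RNA describes these libraries and not the tissue.

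**Figure D2:**
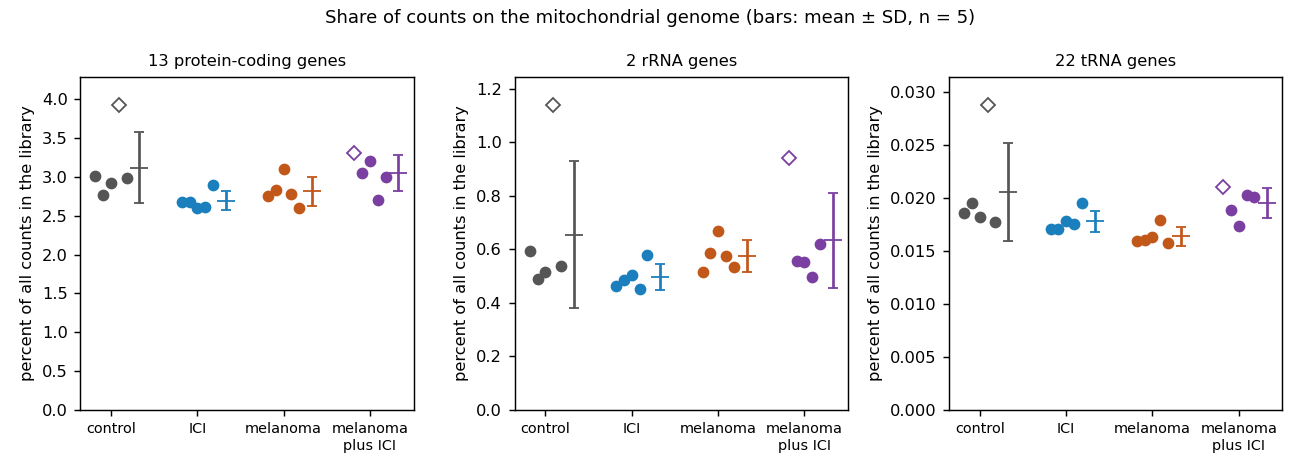
The percent of all counts in a library (vertical axes) that fell on the 13 protein-coding, 2 rRNA and 22 tRNA genes of the mitochondrial genome, by group, with 1 point per library and the mean ± SD of the 5 libraries beside them. Open diamonds are control replicate 4 and melanoma plus ICI replicate 1, and the control diamond is the highest of all 20 in each panel, at 1.14% for rRNA.

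Between genes, levels were compared per kilobase of gene, as mean CPM per kilobase over 20 libraries. On this scale mt-Co1, the catalytic core subunit of complex IV, stood highest at 8682, and it held 38.2% of all mitochondrial counts. Below it came mt-Cytb at 4377, mt-Nd1 at 3518, mt-Rnr1 at 2417, mt-Rnr2 at 2275, mt-Nd2 at 1915, mt-Nd5 at 1780, mt-Nd4 at 1155 and mt-Nd6 at 1130. Divided by only the bases outside the copied stretch (502 of mt-Nd4 and 1062 of mt-Co1), mt-Nd4 was at 3170, above both rRNA genes, and mt-Co1 at 12631. The 6 protein-coding genes that lie whole within the copied stretch all stood far lower: mt-Nd3 at 87.1, mt-Nd4l at 9.52, mt-Co3 at 6.11, mt-Atp8 at 3.29, mt-Co2 at 2.99 and mt-Atp6 at 2.84. The 7 protein-coding genes outside or partly inside the stretch and those 6 thus did not overlap in level. The 11 genes within the stretch held 21330 of 16597974 mitochondrial counts, or 0.129%.

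For 2 of the 5 protein-coding genes within the stretch that have an annotated copy, the copy was listed with more counts than the mitochondrial gene. Summed over 20 libraries, mt-Atp6 had 907 counts and its copy Gm10925 2482, and mt-Co2 had 958 and Gm28661 1644. The order was the reverse for mt-Co3, with 2239 counts against 1351 for Gm28437, for mt-Nd4l, with 1324 against 275 for Gm10222, and for mt-Nd3, with 14186 against 183 for Gm28438. For the genes partly inside, mt-Nd4 had 746479 counts against 969 for Gm28439 and mt-Co1 had 6307838 against 804 for Gm29216. Of the stretches of 100 bases in each gene, 99.5% in mt-Co2 and in mt-Atp6, 99.9% in mt-Co3, 97.6% in mt-Nd3 and 98.5% in mt-Nd4l also occur letter for letter in an annotated nuclear copy. That share was 60.8% in mt-Nd4, 30.8% in mt-Co1, 3.19% in mt-Nd2 and 0% in the other protein-coding and rRNA genes, mt-Atp8 included, which has no annotated copy. How reads that fit several places were counted is not given in the sources used here, so the counts of the 11 genes within the stretch, and those of mt-Co1 and mt-Nd4 in part, are uncertain as levels, and the part of the copies in them was not tested.

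**Figure D3:**
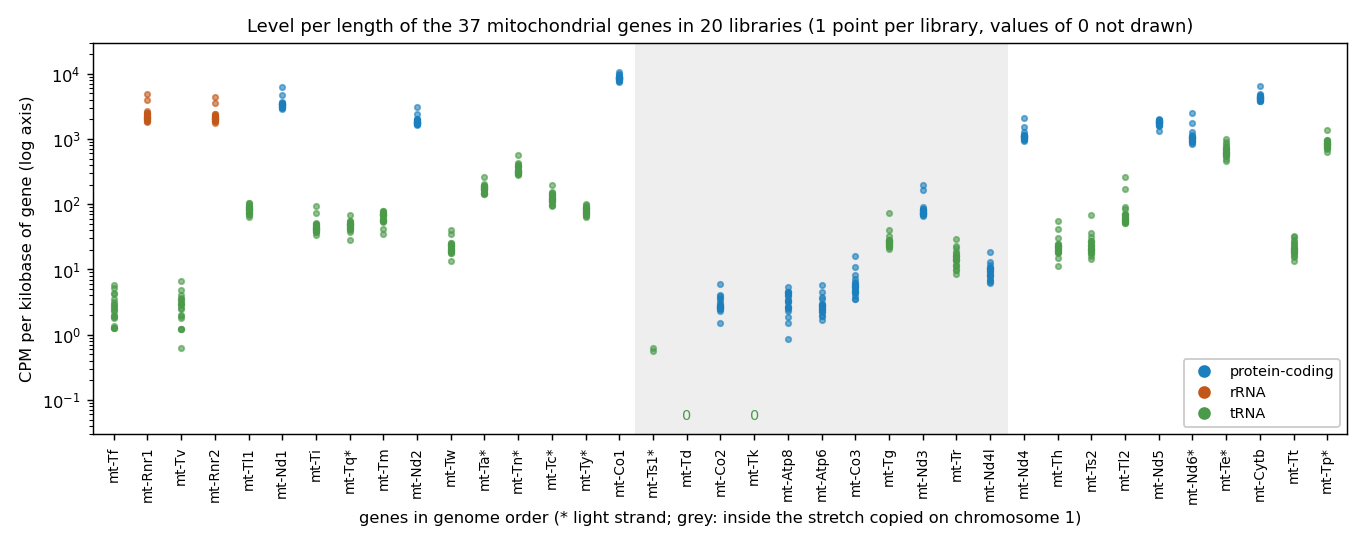
CPM per kilobase of gene on a log axis (vertical) for the 37 mitochondrial genes in genome order (horizontal), 1 point per library, coloured by biotype, with light-strand genes starred and the 11 genes within the stretch copied on chromosome 1 shaded. The protein-coding genes in the shaded stretch lie below 100 on average, from mt-Nd3 at 87.1 down to mt-Atp6 at 2.84, and those elsewhere at 1130 or above.

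The rRNA genes encode the RNA cores of the small (mt-Rnr1, positions 70 to 1024) and large (mt-Rnr2, positions 1094 to 2675) subunits of the mitochondrial ribosome. Listed by replicate number, the control values of mt-Rnr1 were 2245, 1958, 1995, 4619 and 2092 CPM. ICI libraries had 1789, 1880.1, 1962, 1761 and 2169, melanoma libraries 2071, 2409, 2560.2, 2391 and 2065 and melanoma plus ICI libraries 3793, 1998, 2222, 1830.5 and 2362. The replicate 4 control library was the highest of all 20, and apart from it and melanoma plus ICI replicate 1 the 4 groups overlapped. For mt-Rnr2 the 5 control libraries gave 3562, 3036, 3189, 7032 and 3177 CPM. The values were 2972, 3051, 3307, 2764 and 3513 with ICI, 3179, 3545, 3871, 3493 and 3211 with melanoma and 5555, 3496, 3269, 2937 and 3834 with both. The same 2 libraries were the highest for this gene too. Without them melanoma had the highest mean of the 4 groups for both rRNA genes. Across the 20 libraries the log2 CPM of both rRNA genes rose and fell together (Pearson r = 0.981, and 0.893 over the 18 libraries without those 2), a description of libraries that share depth and tissue makeup.

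Complex I takes electrons from NADH, and 7 of its subunits are mitochondrially encoded. Means ± SD over the 5 libraries of each group follow. Its membrane subunit at the quinone site, mt-Nd1, was at 3776 ± 1252 CPM in control, with ICI 3037 ± 167, with melanoma 3099 ± 236 and with both 3556 ± 556. The proton-pumping subunits mt-Nd2, mt-Nd4 and mt-Nd5 make up much of the membrane arm. The first, mt-Nd2, was at 2205 ± 543 CPM in control, with ICI 1812 ± 47.8, with melanoma 1821 ± 96.3 and with both 2114 ± 239, and mt-Nd4 was at 1787 ± 601 CPM in control, with ICI 1425 ± 54.9, with melanoma 1485 ± 124 and with both 1669 ± 303. The third, mt-Nd5, was at 3258 ± 242 CPM in control, with ICI 3262 ± 273, with melanoma 3179 ± 136 and with both 3287 ± 524. The smaller membrane subunits mt-Nd3 and mt-Nd4l lie in the copied stretch, with mt-Nd3 at 34.4 ± 19.4 CPM in control, with ICI 26.1 ± 2.01, with melanoma 27.6 ± 2.49 and with both 33.1 ± 14.3 and mt-Nd4l at 3.34 ± 1.22 CPM in control, with ICI 2.64 ± 0.701, with melanoma 2.32 ± 0.549 and with both 3.01 ± 0.440. The large control SD in most of these genes came with replicate 4: without it, mt-Nd2 was at 1963 ± 32.7 CPM in control (SD, n = 4) and mt-Nd1 at 3217 ± 93.7. For mt-Nd3 this turned the order: without it and melanoma plus ICI replicate 1 the means were 25.8 ± 0.586 in control and 26.8 ± 3.21 with both (n = 4 each), which made control the lowest of the groups. Without these libraries, melanoma plus ICI replaced control as the highest group for mt-Nd1, mt-Nd2, mt-Nd4 and mt-Nd4l. The means of mt-Nd4 were then 1518 ± 34.1 in control and 1554 ± 183 with both (n = 4 each).

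The only protein gene on the light strand is mt-Nd6 (positions 13552 to 14070), also a complex I subunit. The strand setting of the counts is not given in the sources used here. Reads of mt-Nd6 and reads of a transcript from the opposite strand therefore cannot be told apart. The control values of mt-Nd6 were 579.8, 522, 534, 1312 and 521 CPM. Under ICI they were 515, 482, 483, 457 and 564, under melanoma 481, 492, 548, 561 and 434, and under both 899, 672, 549, 534 and 591. The means were 694 ± 347 CPM in control, with ICI 500.2 ± 41.01, with melanoma 503 ± 51.9 and with both 649 ± 149.6 (SD, n = 5). Control replicate 4 was 2.44 times the mean of the other controls, and melanoma plus ICI replicate 1 was the next highest. Without these 2, the control mean was 539 ± 27.9 CPM (SD, n = 4) and that of melanoma plus ICI 586 ± 61.5 (n = 4), beside 500.2 ± 41.01 with ICI and 503 ± 51.9 with melanoma (n = 5).

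Cytochrome b, the electron-carrying core of complex III and its only mitochondrially encoded subunit, is made from mt-Cytb, which was at 5406 ± 1082 CPM in control, with ICI 4636 ± 124, with melanoma 4873 ± 373 and with both 5116 ± 410.5 (SD, n = 5). Without the libraries that stood apart, mt-Cytb was at 4926 ± 149 in control and 5004 ± 375 with both (n = 4 each). In complex IV, which hands electrons to oxygen, the gene with the highest level per length was mt-Co1 (positions 5328 to 6872). Its level was 13810.0, 12957, 13428, 16476 and 13827 CPM in the 5 controls. ICI mice had 12767, 12735, 12552, 12195 and 12959, melanoma mice 13191, 13709, 13743, 13124 and 12176 and mice with both 14868, 13139, 15512, 11426 and 13684. All 4 groups overlapped, and the mean was 14099.8 ± 1375 CPM in control, with ICI 12642 ± 288, with melanoma 13188 ± 634 and with both 13726 ± 1591 (SD, n = 5). The other complex IV genes, mt-Co2 and mt-Co3, lie in the copied stretch. There mt-Co2 was at 2.27 ± 1.03 CPM in control, with ICI 1.90 ± 0.180, with melanoma 2.07 ± 0.341 and with both 1.95 ± 0.746 (SD, n = 5), and mt-Co3 at 5.95 ± 3.83 CPM in control, with ICI 3.98 ± 1.08, with melanoma 4.03 ± 0.843 and with both 5.21 ± 2.16. Leaving out the libraries that stood apart (n = 4 each) gave 1.82 ± 0.0857 in control and 1.75 ± 0.688 with both for mt-Co2, both below ICI and melanoma, and 4.27 ± 0.823 in control and 4.40 ± 1.39 with both for mt-Co3.

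The mitochondrial subunits of ATP synthase (complex V), which belong to its membrane part, had the fewest counts of the protein-coding genes. The gene lowest per length, mt-Atp6 (positions 7927 to 8607), had 26 to 86 counts per library. The controls had 1.33, 1.66, 1.87, 3.97 and 2.01 CPM. With ICI the values were 1.54, 1.99, 1.71, 1.77 and 1.33, with melanoma 1.89, 1.92, 2.56, 1.87 and 1.13 and with both 3.08, 2.40, 1.66, 1.50 and 1.51. Control replicate 4 was again the highest, and all groups overlapped. On average mt-Atp6 was at 2.17 ± 1.04 CPM in control, with ICI 1.67 ± 0.246, with melanoma 1.87 ± 0.506 and with both 2.03 ± 0.693 (SD, n = 5), and without the libraries that stood apart at 1.72 ± 0.295 in control and 1.77 ± 0.429 with both (n = 4 each). With 4 to 24 counts per library, mt-Atp8 was at 0.698 ± 0.241 CPM in control, with ICI 0.683 ± 0.254, with melanoma 0.622 ± 0.289 and with both 0.678 ± 0.249 (SD, n = 5). Without the libraries that stood apart it was at 0.596 ± 0.0881 in control and 0.642 ± 0.272 with both (n = 4 each). Control thus went from the highest group to the lowest.

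Transfer RNAs carry the amino acids to the mitochondrial ribosome. Among the 17 tRNA genes outside the copied stretch, the 5 with the most counts were all light-strand genes: mt-Tp (proline), mt-Te (glutamate), mt-Tn (asparagine), mt-Ta (alanine) and mt-Tc (cysteine), with means over 20 libraries of 57.3, 46.1, 24.6, 12.1 and 8.34 CPM. Of these, mt-Tp was at 64.5 ± 15.5 CPM in control, with ICI 57.4 ± 5.29, with melanoma 51.1 ± 6.65 and with both 56.1 ± 6.49 (SD, n = 5). The others of the 5 were lower: mt-Tn was at 26.4 ± 8.01 CPM in control, with ICI 24.2 ± 3.39, with melanoma 21.5 ± 0.825 and with both 26.3 ± 2.53, mt-Ta at 12.2 ± 3.46 CPM in control, with ICI 12.6 ± 0.513, with melanoma 10.9 ± 0.895 and with both 12.8 ± 0.832, and mt-Tc at 8.84 ± 2.67 CPM in control, with ICI 8.001 ± 1.25, with melanoma 7.70 ± 0.968 and with both 8.81 ± 0.994. Without the libraries that stood apart, control and melanoma plus ICI (n = 4 each) were at 23.1 and 25.6 CPM for mt-Tn and 7.77 and 8.44 for mt-Tc. In the same order they were at 49.2 and 49.9 for mt-Te. For mt-Ta they were at 10.6 and 12.6, which made control the lowest group. The gene mt-Te lies between mt-Nd6 and mt-Cytb, antisense to the transcripts of the heavy-strand genes around it. It was at 48.98, 57.3, 47.9, 68.1 and 42.6 CPM in the control mice. Mice with ICI had 39.2, 43.6, 38.5, 41.6 and 52.5, mice with melanoma 38.2, 31.8, 41.2, 53.1 and 33.9, and those with both 44.1, 48.4, 42.4, 61.3 and 47.6. The highest value was that of control replicate 4, and the groups overlapped, with means of 52.97 ± 9.98 CPM in control, with ICI 43.1 ± 5.65, with melanoma 39.6 ± 8.36 and with both 48.8 ± 7.44 (SD, n = 5).

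The other light-strand tRNA genes outside the stretch are mt-Ty (tyrosine) and mt-Tq (glutamine). They were at 5.53 ± 0.467 CPM in control, with ICI 5.26 ± 0.716, with melanoma 5.40 ± 0.519 and with both 5.33 ± 1.03 for mt-Ty (SD, n = 5) and 3.62 ± 0.724 CPM in control, with ICI 3.10 ± 0.379, with melanoma 3.30 ± 0.298 and with both 3.37 ± 0.783 for mt-Tq. Whether counting used the strand is not given in the sources used here, so reads from a light-strand tRNA and reads of a longer transcript from the opposite strand cannot be told apart. In the cluster of light-strand genes between mt-Nd2 and mt-Co1 (mt-Ta, mt-Tn, mt-Tc and mt-Ty), CPM per kilobase was 176, 347, 126 and 80.3. Counts per length thus differed between neighbouring genes in 1 cluster, and whether RNA levels did was not tested.

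On the heavy strand, mt-Tl1 had the highest mean of the tRNA genes and mt-Tl2, also for leucine, and mt-Tm came next. Of these, mt-Tl1 (UUR codons), follows mt-Rnr2 and was at 6.41 ± 0.799 CPM in control, with ICI 6.44 ± 1.10, with melanoma 5.69 ± 0.417 and with both 6.67 ± 0.911 (SD, n = 5), and mt-Tl2 was at 7.26 ± 6.28 CPM in control, with ICI 4.47 ± 0.603, with melanoma 4.04 ± 0.298 and with both 6.55 ± 3.30. For mt-Tl2 the wide spread in control and melanoma plus ICI came with the 2 libraries that stood apart, at 18.5 and 12.2 CPM, beside 3.65 to 6.40 in the other 18, and without them mt-Tl2 was at 4.46 ± 0.536 in control and 5.15 ± 1.18 with both (n = 4). The isoleucine gene mt-Ti was at 3.81 ± 1.59 CPM in control, with ICI 2.85 ± 0.321, with melanoma 2.85 ± 0.358 and with both 3.47 ± 0.912, and mt-Tm at 4.37 ± 1.24 CPM in control, with ICI 4.50 ± 0.447, with melanoma 4.14 ± 0.528 and with both 4.39 ± 1.03. Levels were lower in the rest: mt-Tw (tryptophan) was at 1.53 ± 0.476 CPM in control, with ICI 1.50 ± 0.163, with melanoma 1.35 ± 0.262 and with both 1.70 ± 0.563. The histidine gene mt-Th was at 1.85 ± 1.02 CPM in control, with ICI 1.45 ± 0.0840, with melanoma 1.29 ± 0.196 and with both 1.71 ± 0.745, and mt-Tt (threonine) at 1.39 ± 0.473 CPM in control, with ICI 1.31 ± 0.231, with melanoma 1.40 ± 0.274 and with both 1.67 ± 0.320. Without the libraries that stood apart, mt-Th was at 1.41 CPM in control and 1.44 with both (n = 4 each), and ICI was highest at 1.45. Control then had the lowest mean for mt-Tw and mt-Tt. The serine gene for AGY codons, mt-Ts2, the shortest at 59 bases, had 20 to 88 counts per library. Controls held 1.21, 1.62, 1.41, 4.06 and 1.60 CPM of it. The ICI libraries held 1.54, 1.32, 1.38, 1.15 and 1.07, the melanoma libraries 1.05, 0.853, 1.26, 0.933 and 1.87, and those with both 2.14, 1.18, 1.16, 1.11 and 1.38. Control replicate 4 was the highest and melanoma plus ICI replicate 1 the second highest of all 20. Group means of mt-Ts2 were 1.98 ± 1.17 CPM in control, with ICI 1.29 ± 0.189, with melanoma 1.19 ± 0.406 and with both 1.39 ± 0.428.

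Within the copied stretch, mt-Tg (glycine) was at 2.29 ± 1.48 CPM in control, with ICI 1.80 ± 0.257, with melanoma 1.66 ± 0.199 and with both 2.01 ± 0.396 (SD, n = 5), and mt-Tr (arginine) at 1.10 ± 0.524 CPM in control, with ICI 0.875 ± 0.265, with melanoma 1.06 ± 0.280 and with both 1.14 ± 0.246. For mt-Tg the libraries that stood apart set the order, since without them it was at 1.63 ± 0.135 in control and 1.84 ± 0.0826 with both (n = 4 each), with control the lowest group. The 5 tRNA genes too rare to be tested were mt-Tf (phenylalanine) and mt-Tv (valine), with 0 to 10 counts per library, and mt-Ts1, mt-Td and mt-Tk. The serine gene mt-Ts1 had 1 count in each of 2 control libraries and none elsewhere. The aspartate gene mt-Td and the lysine gene mt-Tk had 0 counts in all 20 libraries, which allows a level of up to 0.116 to 0.143 CPM per library (3 counts, counting error only). The 3 genes at or near 0 all lie in the copied stretch, next to mt-Co1, mt-Co2 and mt-Atp8.

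Correlations between genes across libraries varied widely. Over the 78 pairs of protein-coding genes, the median correlation of log2 CPM across the 20 libraries was r = 0.738 (from -0.683 to 0.971), and over the 136 pairs of tested tRNA genes it was 0.448. Without control replicate 4 and melanoma plus ICI replicate 1 the medians were 0.391 (from -0.378 to 0.869) and 0.111. These are descriptions of 20 and 18 libraries that share their total and their tissue makeup, and much of the correlation came with those 2 libraries.

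No tested mitochondrial gene passed the test for a difference between groups. In edgeR's quasi-likelihood test over 18427 genes, 0 of the 32 tested met the limit of 0.05 on the adjusted p, be it in the 5 comparisons between groups or in the interaction, and 0 of the 18427 genes did (a background of 0%). Comparisons that share control, ICI or melanoma libraries are not independent, so values are given side by side. DESeq2 and limma with voom quality weights also passed 0 of the 32 in each, while over all genes DESeq2 passed 1, 8, 0, 0, 9 and 47, and limma 0, 1, 0, 25, 0 and 19, in the order of the comparisons below. The text below therefore gives fitted values and counts at an unadjusted p of 0.05, beside the share of all genes past the same limit. The labels say that the samples come from separate mice.

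Checkpoint inhibitors alone (ICI against control) came with lower fitted values for 28 of the 32 tested genes and higher ones for 4, and the median log2 fold change was -0.29, beside -0.01 over all genes, of which 52% were below 0. At an unadjusted p of 0.05, 2 of the 32 were lower, mt-Nd2 and mt-Nd6, and 0 higher, while 5.23% of all genes passed. The gene with the smallest p was mt-Nd2. In control its 5 libraries held 1924, 2004, 1961, 3175 and 1961 CPM, and in ICI 1774, 1864, 1808, 1757 and 1857. Every ICI library lay below every control library. Such a separation, in either direction, was seen for 0.885% of all genes, and among the 32 for mt-Nd2 alone. On the log2 scale mt-Nd2 was at -0.28 (SE 0.12, adjusted p = 0.766 by edgeR, between 0.468 and 1.00 over the alternatives). Without control replicate 4 and melanoma plus ICI replicate 1 it was -0.12 (SE 0.06), the median of the 32 was -0.05, and 21 were lower and 11 higher. Neither mt-Nd2 nor mt-Nd6 then passed the unadjusted limit, and the 1 gene that did, mt-Ta, was higher with ICI, at 0.24 (SE 0.08), beside 4.87% of all genes. Leaving out control replicate 4 alone also moved the median to -0.05.

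Melanoma alone (melanoma against control) came with lower fitted values for 31 of the 32, with a median log2 fold change of -0.21 beside -0.01 over all genes, of which 52% were below 0. The unadjusted limit was passed by 7, all lower (mt-Te, mt-Tp, mt-Ts2, mt-Nd4l, mt-Nd2, mt-Tl2 and mt-Nd6), while 5.11% of all genes passed and 2.41% were lower. Here mt-Te had the smallest p. Its libraries held 48.98, 57.3, 47.9, 68.1 and 42.6 CPM in control and 38.2, 31.8, 41.2, 53.1 and 33.9 in melanoma, where replicate 4 lay among the controls. The log2 fold change was -0.42 (SE 0.15, adjusted p = 0.813 by edgeR, between 0.349 and 1.00 over the alternatives). The melanoma libraries held 1787, 1923, 1891, 1825 and 1677 CPM of mt-Nd2, all below the lowest control at 1924. Such a separation, in either direction, was seen for 1.04% of all genes, and among the 32 for mt-Nd2 alone. Without the 2 libraries, 21 were lower and 11 higher, the median was -0.05, and 1 gene, mt-Te at -0.32 (SE 0.14), passed the unadjusted limit, beside 5.16% of all genes. Without control replicate 4 alone the median was -0.05 as well.

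Tumour and inhibitors together (melanoma plus ICI against control) gave lower fitted values for 25 of the 32 and higher ones for 7, with a median of -0.08 beside 0.00 over all genes, of which 49.3% were below 0. The unadjusted limit was passed by 0 of the 32 and by 2.38% of all genes. The smallest p was that of mt-Ts2, at -0.50 on the log2 scale (SE 0.30, adjusted p = 1.00 by edgeR, between 0.855 and 1.00 over the alternatives). This value depended on both libraries that stood apart: it was -0.07 without control replicate 4, which held 4.06 CPM, -0.72 without melanoma plus ICI replicate 1, which held 2.14 CPM, and -0.28 (SE 0.22) without both. The direction of the whole set also depended on these libraries, with 24 of 32 higher and a median of 0.04 without both, 26 higher and 0.17 without control replicate 4 alone, and 25 higher and 0.05 with limma's quality weights. The unadjusted limit was passed by 1 gene without both, mt-Ta at 0.24 (SE 0.08), beside 3.84% of all genes, and 4 without control replicate 4 alone, all higher, beside 5.85%. Leaving out each library in turn gave medians from -0.19 (without melanoma plus ICI replicate 1) to 0.17.

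Adding inhibitors in tumour-bearing mice (melanoma plus ICI against melanoma) gave higher fitted values for 30 of the 32, with a median of 0.21 beside 0.02 over all genes, of which 46.5% were below 0. The unadjusted limit was passed by 0 of the 32 and by 5.5% of all genes, 2.63% higher and 2.87% lower. The smallest p was that of mt-Te, with a fitted value of 0.30 on the log2 scale (SE 0.15, adjusted p = 0.825 by edgeR, between 0.163 and 0.987 over the alternatives). The melanoma plus ICI libraries held 44.1, 48.4, 42.4, 61.3 and 47.6 CPM of it, all above 4 of the 5 melanoma libraries. Without the 2 libraries 24 were higher and 8 lower, the median was 0.11, and 7 passed the unadjusted limit, all higher, beside 7.11% of all genes. Leaving out melanoma plus ICI replicate 1 alone gave a median of 0.10.

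The tumour in treated mice (melanoma plus ICI against ICI) came with higher fitted values for 29 of the 32 and a median of 0.18 beside 0.02 over all genes, of which 45% were below 0. The unadjusted limit was passed by 0 of the 32 and by 8.63% of all genes, 4.12% higher and 4.51% lower. The smallest p was again that of mt-Nd2, whose melanoma plus ICI libraries held 2486, 2130.4, 2087, 1825 and 2044 CPM and whose fitted value was 0.22 on the log2 scale (SE 0.12, adjusted p = 0.586 by edgeR, between 0.242 and 0.827 over the alternatives). Only melanoma plus ICI replicate 4 lay within the ICI range. Without the 2 libraries 24 were higher, the median was 0.10, and 2 passed the unadjusted limit, mt-Nd2 at 0.16 (SE 0.06) and mt-Nd6 at 0.23 (SE 0.09), beside 10.1% of all genes. Without melanoma plus ICI replicate 1 alone the median was 0.09.

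The interaction asks whether the effect of inhibitors differed between tumour-bearing and tumour-free mice, as the first minus the second. All 32 fitted values were above 0, with a median of 0.46 beside 0.02 over all genes, and 47.2% of all genes were below 0. Of the 32, 8 passed the unadjusted limit, all higher (mt-Nd2, mt-Te, mt-Nd6, mt-Tl2, mt-Nd1, mt-Ti, mt-Nd4l and mt-Nd4), beside 10.3% of all genes (5.99% higher, 4.28% lower). For mt-Nd2, with the smallest p, the interaction was 0.50 (SE 0.17, adjusted p = 0.476 by edgeR, between 0.104 and 0.631 over the alternatives), and for mt-Nd6 it was 0.84 (SE 0.30, adjusted p = 0.476). Both libraries that stood apart enter this contrast with the same sign. Without them 24 were above 0 and 8 below, the median was 0.13, and 3 passed the unadjusted limit, mt-Nd2 at 0.28 (SE 0.08), mt-Nd6 at 0.34 (SE 0.12) and mt-Te at 0.54 (SE 0.20), beside 7.99% of all genes. Without control replicate 4 alone the median was 0.19, with 30 above 0, and without melanoma plus ICI replicate 1 alone it was 0.30, with 31 above 0.

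**Figure D4:**
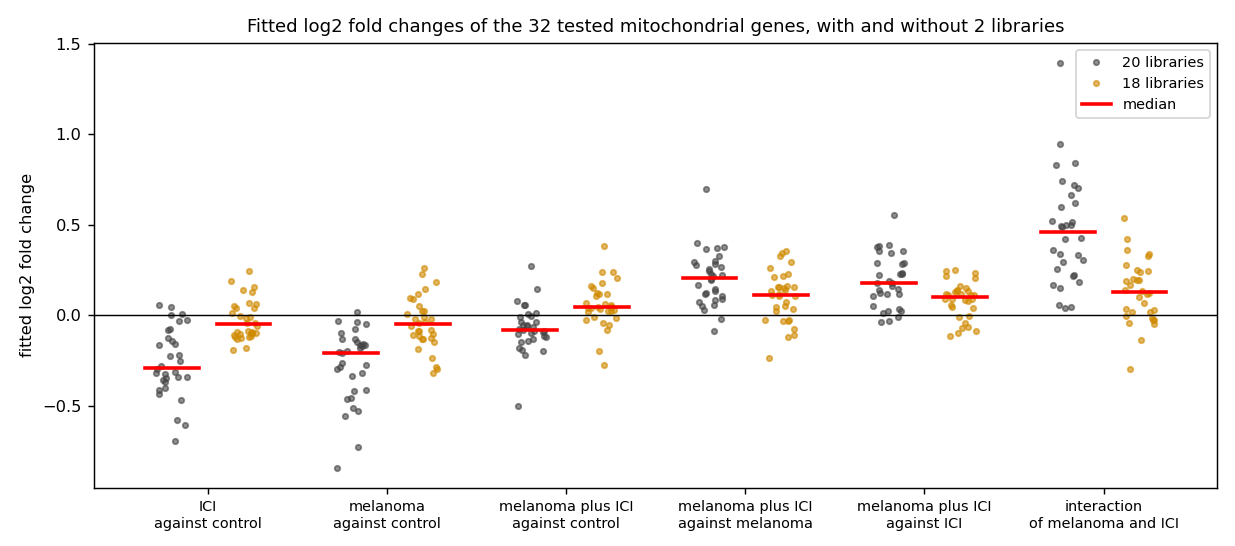
Fitted log2 fold changes (vertical axis) of the 32 tested mitochondrial genes in the 5 comparisons and the interaction (horizontal axis), 1 point per gene, from all 20 libraries (grey) and from the 18 without control replicate 4 and melanoma plus ICI replicate 1 (orange), with medians as red lines. The interaction median moves from 0.46 to 0.13 and that of melanoma plus ICI against control from -0.08 to 0.04.

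**Figure D5:**
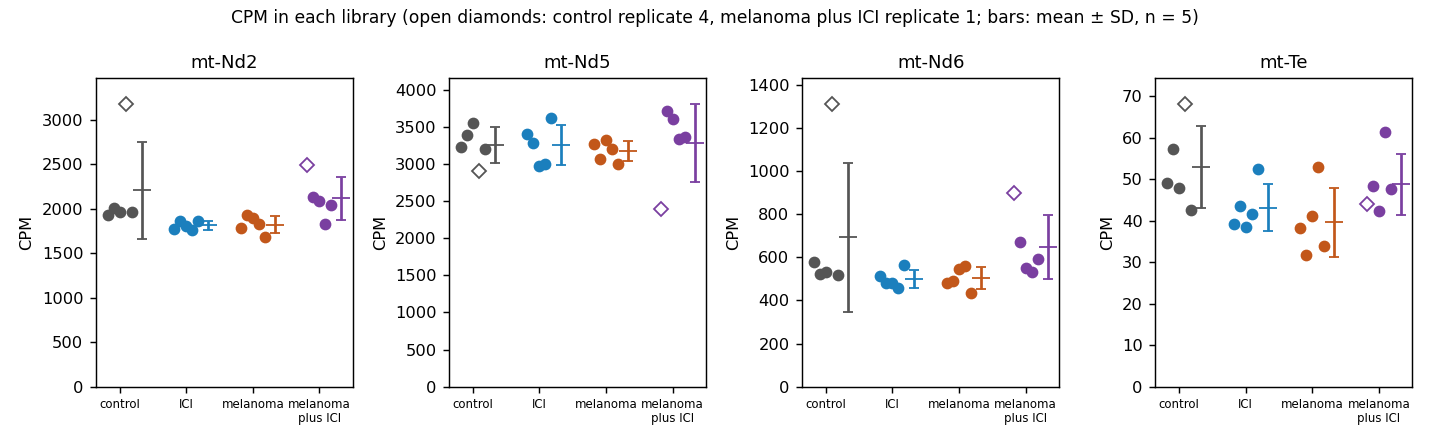
CPM (vertical axes, from 0) of mt-Nd2, mt-Nd5, mt-Nd6 and mt-Te in each library by group, with the mean ± SD of the 5 libraries beside the points and the 2 libraries that stood apart as open diamonds. For mt-Nd2 all ICI and melanoma points lie below the control points, and for mt-Nd5 the diamonds lie lowest in their groups, at 2904 and 2395 CPM.

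Most counts at the unadjusted limit also moved when the choroid plexus score was added to the fit, as did the share of all genes. Whether tissue makeup was the reason was not tested. With the choroid plexus score as a covariate, 10, 12, 0, 6, 7 and 18 of the 32 passed it in the order of the comparisons above, beside 10.6%, 10.3%, 3.27%, 14.7%, 17.1% and 24.3% of all genes, and 0 passed the adjusted limit. That score ran from 0.98 to 6.57 among controls, 0.16 to 5.02 with ICI, 1.12 to 5.60 with melanoma and 1.28 to 6.67 with both.

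The partner subunits from the nucleus had fitted medians of the same sign as the mitochondrial genes, and none passed the adjusted limit (edgeR). Of the nuclear-encoded subunits, 36 of complex I, 9 of complex III, 12 of complex IV and 15 of complex V were tested. Their median log2 fold changes were -0.20, -0.21, -0.23 and -0.19 in ICI against control, and -0.21, -0.19, -0.22 and -0.18 in melanoma against control. In the interaction they were 0.37, 0.37, 0.36 and 0.37. Without control replicate 4 and melanoma plus ICI replicate 1 the interaction medians were 0.05, 0.07, 0.03 and 0.09, beside 0.13 for the 32 mitochondrial genes, those of ICI against control were -0.01, -0.01, -0.01 and -0.02, and those of melanoma against control -0.01, -0.01, 0.00 and -0.01. The subunits with the smallest p in ICI against control were Ndufa1 (-0.34, SE 0.15), Uqcrb (-0.26, SE 0.14), Cox6a1 (-0.35, SE 0.17) and Atp5j (-0.23, SE 0.12), each with an adjusted p of 0.766 by edgeR. At an unadjusted p of 0.05, Ndufa1 alone of the nuclear subunits passed in that comparison. Without the 2 libraries it did not pass, at -0.14 (SE 0.10), and Uqcrb was at -0.07 (SE 0.08), Cox6a1 at -0.11 (SE 0.08) and Atp5j at -0.07 (SE 0.06).

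The proportion of mitochondrial to nuclear transcripts within a complex overlapped between all groups. It was formed from the mitochondrial genes outside or partly inside the copied stretch, which are 5 of complex I, mt-Cytb and mt-Co1. Their summed CPM divided by that of the nuclear subunits of complex I was 4.49 ± 0.232 (SD, n = 5) in control mice, 4.31 ± 0.229 with ICI, 4.36 ± 0.177 with melanoma and 4.50 ± 0.559 with both. For complex III it was 6.20 ± 0.165, 5.83 ± 0.186, 6.19 ± 0.410 and 6.03 ± 0.654, and for complex IV 7.65 ± 1.16, 7.81 ± 0.391, 7.96 ± 0.345 and 7.79 ± 1.09, in the same order. Without control replicate 4 and melanoma plus ICI replicate 1, control and melanoma plus ICI (n = 4 each) were at 4.57 ± 0.178 and 4.68 ± 0.451 for complex I, 6.22 ± 0.185 and 6.20 ± 0.623 for complex III and 8.16 ± 0.155 and 8.12 ± 0.930 for complex IV, where the control mean went from the lowest of the 4 groups to the highest. All groups still overlapped. The lowest ratio of all 20 was that of melanoma plus ICI replicate 1 for complexes I (3.79) and III (5.37) and that of control replicate 4 for complex IV (5.59). Within its group each of the 2 libraries had the lowest ratio for complexes I and IV, and melanoma plus ICI replicate 1 also for complex III. Their larger mitochondrial share thus came with nuclear subunits of complexes I and IV that stood higher still relative to the mitochondrial ones. No ratio was formed for complex V, whose mitochondrial subunits both lie in the copied stretch.

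Genes that make and process mitochondrial RNA were read from the same gene-by-gene fits, and 0 passed the adjusted limit in any comparison (edgeR). The lists held 18 tested genes of transcription and replication, 21 of RNA processing and decay, 15 of RNA modification and 6 regulators of mitochondrial biogenesis. In ICI against control their medians were -0.06, -0.05, -0.05 and 0.07, and in the interaction 0.08, 0.11, 0.15 and -0.19. Leaving out both libraries that stood apart gave -0.02, -0.01, 0.00 and 0.04 in ICI against control and -0.05, 0.03, 0.04 and -0.13 in the interaction. The one with the smallest p was Ptcd1, a mitochondrial protein that acts on leucine tRNAs and rRNA. Controls held 27.8 ± 4.94 CPM of Ptcd1 (SD, n = 5), mice with ICI 34.4 ± 2.04, with melanoma 33.1 ± 2.24 and with both 26.7 ± 2.76. The log2 fold change was 0.31 (SE 0.11) in ICI against control and -0.37 (SE 0.11) in melanoma plus ICI against ICI, and its interaction was -0.62 (SE 0.15, adjusted p = 0.253 by edgeR). Without the 2 libraries these values were 0.21 (SE 0.07) in ICI against control and -0.45 (SE 0.10, adjusted p = 0.183) for the interaction. In each of these Ptcd1 was opposite in sign to the median of the mitochondrial genes. In the other lists, the smallest p in the interaction was that of Ssbp1 (0.30, SE 0.13), which coats single-stranded mitochondrial DNA, Mrm1 (0.59, SE 0.20), which methylates the large mitochondrial rRNA, and Ppargc1b (-0.49, SE 0.23), a coactivator of mitochondrial biogenesis, each with an adjusted p of 0.476 to 0.484 by edgeR, and at 0.24 (SE 0.11), 0.43 (SE 0.19) and -0.33 (SE 0.22) in the same order without the libraries that stood apart.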

How the data were processed

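The deposited files give raw counts per gene for 20 libraries, 1 table per library, per the file headers with the coordinates, strand and length of 49671 genes. The authors' processing is known only in part: STAR 2.5.2b and DESeq2 1.16.1 are named in the submitters' processing notes without a role. Build, annotation release, strand setting, enrichment method and the treatment of reads that fit several places are not given in the sources used here. Coordinates and identifiers were compared with GENCODE M21 (GRCm38): 49412 identifiers occur there, and all 37 mitochondrial genes have the same coordinates. No line lacked a gene.

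Groups and replicate numbers come from the sample titles. Tests used edgeR 4.0.16 in R 4.3.3: filterByExpr by group (minimum count 10, minimum total 15), TMM scaling (factors 0.955 to 1.04), and a robust quasi-likelihood fit of all 20 libraries, with p-values adjusted by Benjamini-Hochberg over 18427 genes and a threshold of 0.05. CPM scale counts to 1000000 over tested genes after TMM scaling. The test was checked on simulated data. As a check for duplicate deposits, counts were compared between libraries of a group: the chi-square statistic was 11.0 to 128 per gene over 40 pairs, so duplicates were not found. At these depths a gene with 0 counts is limited to 3 counts per library, and intervals of this kind cover counting error only.

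The genes named with each library's value were both rRNA genes, mt-Nd6, the protein-coding genes highest and lowest per kilobase, and the gene with the smallest p in each comparison. Group means are given for all protein-coding genes and tRNA genes of at least 1 CPM. Of the gene lists, counts and the gene with the smallest p are given. Members, lists and tests were chosen with earlier results of these data known, so their p-values are not independent of them. Nuclear copies were found with blastn 2.17.0 among annotated transcripts (at least 90% identity over 50% of the copy). No genome sequence was used here. Alternatives were size factors, library sizes from nuclear genes, DESeq2 1.42.0, limma 3.58.1 with voom quality weights, a fit of only the groups compared, no filter, a replicate block, a choroid plexus covariate and leaving out libraries.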

Additional observations from a re-analysis of the deposited data

Results flagged for a closer look

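In 164 sets of 5 values (a measure in 1 group), 42 had a highest or lowest library farther from the rest than Dixon's 95% limit, where chance alone gives about 1 in 20. The sets share libraries and counts and are not independent, so 1 library can be flagged in many of them. The 42 therefore cannot be read against 1 in 20 as separate results. Control replicate 4 accounts for 27 of the 42 and melanoma plus ICI replicate 1 for 9. The other 6 fell on ICI replicate 5 (3), melanoma replicate 4 (2) and ICI replicate 3 (1).

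In control replicate 4 the mitochondrial share was 5.10% of all counts, the protein-coding share 3.93%, the rRNA share 1.14% and the tRNA share 0.0288%. Of its mitochondrial counts, 22.4% were rRNA and 2.98% came from light-strand genes. Among the rRNA and abundant protein-coding genes, mt-Rnr1 stood out at 4619 CPM, mt-Rnr2 at 7032, mt-Nd1 at 6011, mt-Nd2 at 3175, mt-Nd4 at 2861, mt-Nd6 at 1312, mt-Co1 at 16476 and mt-Cytb at 7327. Among the protein-coding genes in the copied stretch, mt-Co2 stood out at 4.11 CPM, mt-Atp6 at 3.97, mt-Co3 at 12.7, mt-Nd3 at 69.2 and mt-Nd4l at 5.49. Among tRNA genes, mt-Ti stood out at 6.60 CPM, mt-Tq at 4.89, mt-Ta at 18.2, mt-Tg at 4.94, mt-Th at 3.64, mt-Ts2 at 4.06 and mt-Tl2 at 18.5. Its complex IV ratio of mitochondrial to nuclear CPM was low, at 5.59.

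Melanoma plus ICI replicate 1 stood out in its rRNA share of 0.941% and in mt-Rnr1 at 3793 CPM, mt-Nd3 at 58.3, mt-Ti at 5.05, mt-Tw at 2.67, mt-Tg at 2.71, mt-Tr at 1.56 and mt-Ts2 at 2.14. It was lowest of its group in mt-Nd5, at 2395 CPM. In this library as in control replicate 4, long nuclear genes exceeded short ones by less than in the other 18. ICI replicate 5 was highest of its group in the mitochondrial share, at 3.50%, in the protein-coding share, at 2.90%, and in mt-Tn, at 30.1 CPM. ICI replicate 3 was highest in mt-Nd4l, at 3.86 CPM. Melanoma replicate 4 was highest in the tRNA share, at 0.0179%, and in the light-strand share of mitochondrial counts, at 2.08%.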

How the results depend on the processing

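In every comparison and the interaction, 0 of the 32 tested genes passed the adjusted limit under each alternative, leave-one-out included. Over all genes the count left 0 in some settings: with DESeq2 (at most 47), with limma (at most 25), with only the groups compared (3 in melanoma against control), without melanoma plus ICI replicate 3 (12 for inhibitors in tumour-bearing mice, 11 in the interaction and 3 for melanoma alone), without control replicate 2 (1 in melanoma against control) and, in the interaction, without ICI replicate 4 (2), melanoma replicate 4 (1), control replicate 4 (1) or both libraries that stood apart (1). Counts at the unadjusted limit moved by over 1.5 times with the setting: from 2 to between 0 and 10 in ICI against control, from 7 to between 1 and 12 in melanoma against control, from 8 to between 3 and 18 in the interaction, and from 0 to at most 4, 8 and 7 in melanoma plus ICI against control, melanoma and ICI. The share of all genes past that limit moved with the setting too, from 3.23% to 10.6%, 3.80% to 10.3%, 7.11% to 24.3%, 1.48% to 5.85%, 3.91% to 14.9% and 4.83% to 17.1% in the same order. The 2 libraries that stood apart moved medians most, as given above. With limma's quality weights and all 20 libraries the medians were -0.09, -0.09, 0.05, 0.16, 0.13 and 0.17 in the order of the report. In the interaction, 29 of the 32 were then above 0. The share of counts on the mitochondrial genome counted over protein-coding genes alone was 3.12% for control, 2.70% for ICI, 2.81% for melanoma and 3.06% for melanoma plus ICI. Without the 100 most abundant nuclear genes in the total it was 4.42%, 3.73%, 3.96% and 4.30%, with control replicate 4 at 5.90% and the other controls at 3.84% to 4.17%. Leaving out 1 library gave 3.47% to 3.93% for control, 3.14% to 3.24% for ICI, 3.31% to 3.47% for melanoma and 3.57% to 3.83% for both. Deviations from the group means correlated at r = 0.03 on average over 30 pairs of same-numbered libraries (from -0.35 to 0.53) and at -0.01 for other numbers, with 6 of 20 libraries closest to their own number, so the numbers were not taken to pair the samples. With the replicate number as a block 0 of the 32 passed in any comparison, and the medians were -0.27, -0.20, -0.06, 0.21, 0.17 and 0.44 in the order of the report. The 5 tRNA genes with the fewest counts could not be tested, and the part of depth in this was not tested.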

Other observations

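The makeup of the mitochondrial counts themselves varied between libraries. The rRNA genes held 14.6% to 17.7% of them in 18 libraries, and 22.4% in control replicate 4 and 22.02% in melanoma plus ICI replicate 1. The gene mt-Co1 held 31.6% in control replicate 4, 35.0% in melanoma plus ICI replicate 1 and up to 41.2% elsewhere (melanoma plus ICI replicate 3). The share of mt-Nd5 ran from 5.57% to 10.8%, and that of mt-Nd6 from 1.39% to 2.52%. The tRNA genes held between 0.432% and 0.629%, with neither of the 2 libraries at an end of that range.

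Nuclear copies off chromosome 1 ranged widely in counts. Summed over 20 libraries, Gm13340 had 1893 counts, between 70 and 120 per library, beside 6307838 for mt-Co1, and Gm13341 had 588 beside 958 for mt-Co2. Gm11410, which spans nearly all of mt-Cytb at 92.9% identity, had 12 counts, and Gm11408, a copy of mt-Nd6, had 7.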
